A study of Mus musculus with 15 samples.

Results

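The comparison described here is that of a selected line of mice with a control line in one brain region, the cerebellum (Ce). Its members were chosen by the labels alone: 8 of the 15 samples of the series came from the Ce, 4 of the selected line (CeHi) and 4 of the control line (CeCo). The other 7 samples, 4 StCo and 3 StHi, came from the striatum (St) and are used only to show where the Ce differs from that region. Both lines were of the Hsd:ICR strain, and all mice were males labelled as 6 weeks old with access to a running wheel for 7 days, so that wheel access is shared by CeHi and CeCo. How far each mouse ran is not used here, and line and amount of running cannot be told apart. Hi mice came from a line bred for high voluntary wheel running, and Co mice from a line bred without that selection. A single Hi line was set against a single Co line, so selection and chance divergence of the lines cannot be told apart. The mice were not sibs, and the entire Ce of each was dissected. Line differences are given as Hi minus Co, so that positive values are higher in CeHi. These directions rest on the deposited labels alone, because neither line carries an engineered gene that could check which is which. For Zfp33b, Arhgap8, Cyp11a1, Ms4a2 and Gif, the study's table of line effects over both regions gives the direction of the labels. For other genes, among them Npsr1, Npy, Vdr, Necab1 and Krt25, the labels and the text of the study do not give the same direction. In the study's table of interaction genes, headed control versus selected, the genes just named have nearly the size and sign of Hi minus Co here. A swap of the sample labels would turn the direction against both tables of the study. Why those tables differ in sign was not tested. CeHi and CeCo therefore mean the samples so labelled.

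The Ce tunes the timing and coordination of movement. Granule cells, the most numerous neurons of the region, excite Purkinje cells, whose axons are the sole output of the cerebellar cortex and inhibit the deep nuclei. Neuropeptides and their receptors adjust such circuits over a slower time scale than the fast transmitters glutamate and GABA.

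Each value is a number of fragments divided by a size factor of its sample, without regard to gene length (normalized counts, in which 1 fragment is worth 0.841 to 1.06). The 8 samples held 36940371 to 47485707 fragments and 18951 to 19285 genes above 0. The tissue label was met by its markers in every sample: Gabra6, a GABA receptor subunit of granule cells, lay between 48245 and 61069 normalized counts in the Ce and at most at 23.8 in the St, and the Purkinje cell gene Pcp2 between 7003 and 9954 in the Ce and at most at 8.31 in the St. Some samples stood apart. CeHi replicate 3 had 179 normalized counts of the homeobox gene Six3, against 1.78 to 5.05 in the other 7 samples, and was also the highest for Tfap2d (87.7), Vip (98.3), Shox2 (129) and Pou4f2 (59.2). Six3 lay at 2430.2 to 3253 in the St but Pou4f2 at most at 1.19. Of 2 receptor genes of striatal neurons, Adora2a was at 91.9 in this sample against 61.4 to 74.9 in the other 7. Drd2 was at 109 in this sample against 18.7 to 33.6 in the other 7. In the St, Adora2a lay at 9480.1 to 14977 and Drd2 at 3531 to 5275. CeCo replicate 0 had 173 normalized counts of growth hormone (Gh) and 62.4 of prolactin (Prl), both hormones of the pituitary. Ttr, a gene of the choroid plexus, was at 921 in CeCo replicate 1 and 594 in CeHi replicate 0 and between 11393 and 109529 in the other 6 samples. Values without CeHi replicate 3 are given beside several of the results below.

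Of 26628 genes, 14450 with a CPM (normalized counts scaled to a common total) of at least 1 in 3 or more of the 8 samples were tested with limma on log2(normalized count + 1). A difference was called at a Benjamini-Hochberg adjusted P-value under 0.05. Between the lines 2923 genes (20.2%) had an unadjusted P-value under 0.05, and 847 genes were called, 5.86% of those tested, of which 422 were higher (2.92%) and 425 lower (2.94%) in CeHi. Most differences were small: the median size among called genes was 0.450 on the log2 scale, and 471 of them were under 0.5. A size over 1 was reached by 121 called genes (0.837% of those tested), 55 higher and 66 lower in CeHi, and a size over 2 by 40 genes, 16 higher and 24 lower. The ranges of the lines did not overlap for 835 of the 847 called genes and for 2004 of all genes tested (13.9%). Without CeHi replicate 3, 768 genes were called, 371 higher and 397 lower. In bulk tissue, fewer cells of a type and less RNA per cell cannot be told apart.

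**Figure D1:**
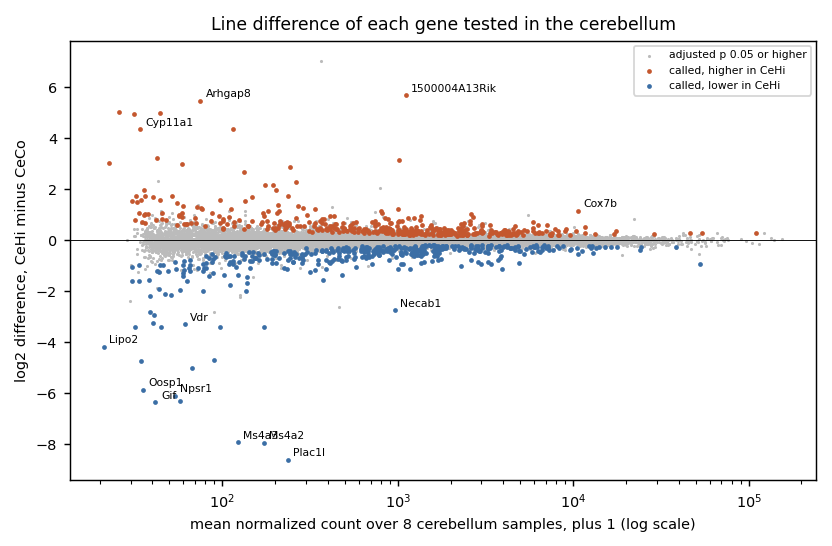
Log2 difference (CeHi minus CeCo) of each of the 14450 genes tested against its mean normalized count over the 8 Ce samples plus 1 (log scale), with called genes in color. Called genes lie on both sides of 0 (422 higher and 425 lower in CeHi), and the farthest below 0 are Plac1l, Ms4a2 and Ms4a3, which are neighbors on chromosome 19.

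The largest differences fell on a run of neighboring genes on chromosome 19 that had transcripts in CeCo and next to none in CeHi. From Ms4a2 to Gif, a span of 148 kb on GRCm38 (chr19:11615517-11763447), 5 of the 6 genes in the table were at the detection floor in CeHi, which here means at most 3 fragments in every sample, and had over 30 fragments in every CeCo sample. The span was marked out after these values were seen. Its genes are best known from other tissues: Ms4a2 encodes a chain of the IgE receptor of mast cells, Ms4a3 belongs to the same family of membrane proteins, Plac1l (in RefSeq Oosp2) and Oosp1 encode secreted proteins of the oocyte, and Gif (in RefSeq Cblif) is gastric intrinsic factor, which binds vitamin B12. The 250 bases before the annotated start of 3 of these genes are shown because all 5 were at the floor in the same samples. For Ms4a2 and Gif that window reaches into another annotated transcript, and it is not shown. Sequences are from RefSeq (GRCm38.p6), 5′ to 3′ on the strand of the gene, and capitals mark a match to CCAAT.
Ms4a3 (chr19:11640852-11641101, minus strand): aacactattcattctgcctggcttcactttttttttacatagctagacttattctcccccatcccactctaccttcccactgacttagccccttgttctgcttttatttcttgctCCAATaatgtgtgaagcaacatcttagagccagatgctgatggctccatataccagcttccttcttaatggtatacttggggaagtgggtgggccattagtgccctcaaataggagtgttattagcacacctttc
Plac1l (chr19:11660560-11660809, minus strand): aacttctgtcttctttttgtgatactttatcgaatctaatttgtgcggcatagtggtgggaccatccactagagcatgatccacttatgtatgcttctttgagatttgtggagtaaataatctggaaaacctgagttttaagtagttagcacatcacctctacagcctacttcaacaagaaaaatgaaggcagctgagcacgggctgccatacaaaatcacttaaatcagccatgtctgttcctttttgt
Oosp1 (chr19:11691052-11691301, minus strand): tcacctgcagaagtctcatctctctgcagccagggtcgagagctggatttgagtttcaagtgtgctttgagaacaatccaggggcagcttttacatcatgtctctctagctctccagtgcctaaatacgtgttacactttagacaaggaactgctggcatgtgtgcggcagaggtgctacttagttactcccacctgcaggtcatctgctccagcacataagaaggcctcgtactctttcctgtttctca
All 5 windows were searched on both strands for the TATA motif (TATAAA), the CCAAT box (the letters of its name) and the GC box (GGGCGG). Over the 32851 windows of the RefSeq table, 12.4% hold the TATA motif, 33.8% the CCAAT box and 32.7% the GC box. Of the 5 windows only that of Ms4a3 held a match, a CCAAT on the strand of the gene that begins 135 bases before the annotated start. The 5 windows had 38.8% to 49.2% G and C, against a median of 52.4% over all windows, and 0 to 4 CG pairs, against a median of 6.

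Ms4a2 was at 298, 355, 371 and 349 normalized counts in CeCo and at 0.841, 0, 0 and 1.06 in CeHi. Plac1l was at 393, 455, 536 and 489.8 in CeCo, and its CeHi values were 0, 1.05, 0 and 0. No fragment of Ms4a3 was found in any CeHi sample, whereas CeCo had 217, 225, 287 and 241. All CeCo samples lay far above all CeHi samples for these genes. Gif was at 77.4, 68.6, 87.9 and 90.8 in CeCo and at 0 in all 4 CeHi samples. Oosp1 was at 60.6, 68.6, 81.9 and 62.3 in CeCo and at 0, 0, 0.926 and 0 in CeHi. Set against a floor of 3 fragments per library, the means were at least 161-fold (Plac1l), 118-fold (Ms4a2), 83.3-fold (Ms4a3), 27.9-fold (Gif) and 23.5-fold (Oosp1) lower in CeHi. Limma's adjusted P-values lay between 4.45e-09 for Ms4a3 and 9.91e-07 for Oosp1. These genes passed the filter on low values through CeCo alone, and the span was chosen on these values. The P-values are therefore no separate support. Gm97, which lies between Oosp1 and Gif, had at most 0.891 normalized counts in any of the 8 samples. The span had sharp edges. Ms4a6d, the tested gene before it, differed by -0.40 ± 0.21 on the log2 scale (SE, adjusted P-value = 0.314), and Mrpl16, the gene after it, by -0.12 ± 0.08 (adjusted P-value = 0.432). In the St the same 5 genes lay between 6.17 and 254 normalized counts over the StCo samples and at most at 2.59 over the StHi samples.

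**Figure D2:**
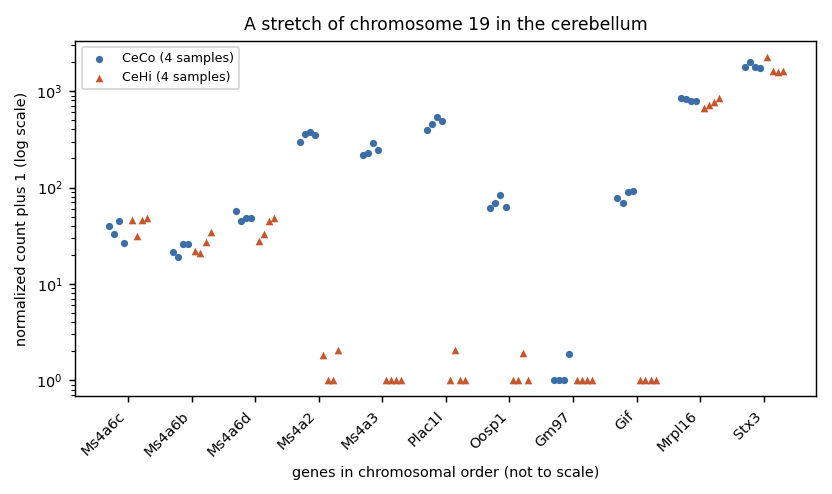
Normalized counts plus 1 (log scale) of genes along chromosome 19 in their order on the chromosome, in each CeCo sample (circles) and each CeHi sample (triangles). Ms4a2, Ms4a3, Plac1l, Oosp1 and Gif lie between 60.6 and 536 in CeCo and at most at 1.06 in CeHi, while for Ms4a6d and Mrpl16 on either side the lines overlap.

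By the same limits, 10 genes in all were at the floor in one line and over 30 fragments in every sample of the other (0.0376% of the 26628 genes). Besides the 5 on chromosome 19, Obox6, an oocyte homeobox gene, was at 141, 121, 70.8 and 116 in CeCo and at most at 1.05 in CeHi, a mean at least 38.5-fold lower. Hist1h2al, which bears a histone symbol but is annotated as a transcribed pseudogene (in RefSeq H2af-ps2), was at 70.8, 48.1, 71.7 and 68.6 in CeCo. In CeHi it was at most at 3.16. Since 67.6% of its 50-base windows are shared with other transcripts, its reads are uncertain. Of the 3 genes at the floor in CeCo, A330076C08Rik was at 70.6, 94.9, 88 and 86.7 in CeHi (at least 31.8-fold higher) and 1700030C10Rik at 54.7, 47.5, 50.9 and 41.2 (at least 18.2-fold). The third, Gm17748, with 78.9% of its windows shared, was at 61.4, 60.1, 62.1 and 56 (at least 22.4-fold). A gene of this kind passed the filter on low values only through the line in which it was present. The same holds for genes under a CPM of 1 in every sample of one line. Among those lower in CeHi are Npsr1, Vdr, Lipo2, 5031434O11Rik, A630081J09Rik, Gbp10, 4930412C18Rik and H2-Ab1. Those higher in CeHi include Arhgap8, Cyp11a1, Zfp33b, Scd4 and Cml2. Their P-values are not free of that filter.

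Other genes had large differences without meeting these limits, and those higher in CeHi come first. 1500004A13Rik, annotated as a long noncoding RNA, was at 37.3, 35.7, 52.9 and 41 in CeCo and at 2269.6, 2261, 1986 and 2198 in CeHi, a log2 difference of 5.68 ± 0.12 (SE, adjusted P-value = 2.52e-10, the smallest of all genes tested). It overlaps 5830417I10Rik, which was at 246, 216, 211 and 158 in CeCo and 1839.9, 2004, 1806 and 1626 in CeHi (3.14 ± 0.12), and reads of such overlapping genes cannot be told apart here. Of the windows of 5830417I10Rik, 68.4% are shared with other transcripts. Cyp11a1, which cuts the side chain of cholesterol at the start of steroid hormone synthesis, was at 2.8, 0.892, 1.71 and 3.56 in CeCo and at 70.6, 77, 63 and 43.3 in CeHi (4.36 ± 0.33). Arhgap8, a GTPase activating protein, lay at 0.891 to 4.66 in CeCo and 95 to 177 in CeHi (5.46 ± 0.34). For the zinc finger gene Zfp33b the ranges were 6.52 to 15.4 and 201 to 241 (4.35 ± 0.23). Smaller rises were those of the desaturase gene Scd4 (3.04 ± 0.43, CeHi 23.2 to 46.2) and of Cml2 (2.99 ± 0.25, CeHi 83.2 to 120.4). Gm10020 was also called (2.86 ± 0.56, adjusted P-value = 0.0297), but CeCo replicate 1 was at 193 while the other CeCo samples lay at 30.8 to 41.9, 91.1% of its windows are shared, and the call was lost in 9 of 21 alternatives (highest adjusted P-value 0.092).

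In the opposite direction, 5031434O11Rik was at 117, 139, 116 and 145 in CeCo and at 4.2, 3.16, 1.85 and 3.17 in CeHi (-5.02 ± 0.24). A630081J09Rik fell (-4.68 ± 0.28, CeCo 128 to 249.6, CeHi 3.17 to 7.38), as did the lipase gene Lipo2, with 44.1% of its windows shared (-4.18 ± 0.32, CeCo 26.7 to 45.4, CeHi 0.841 to 1.85). Gbp10, a guanylate binding protein with 84.1% of its windows shared, was lower (-3.42 ± 0.31, CeCo 61.5 to 115, CeHi 4.2 to 11.6).

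Among genes with smaller but tightly replicated differences was Cox7b, an X-linked subunit of cytochrome c oxidase, at 6383, 6763, 6288 and 6936 in CeCo and at 14437, 15240.1, 14329 and 15255 in CeHi. The lines were far apart relative to the spread within each, with a log2 difference of 1.16 ± 0.05 (adjusted P-value = 1.27e-07). Adi1, an enzyme of methionine salvage, differed by 1.03 ± 0.06, with 1670.1 to 1754 in CeCo and 3306 to 3851 in CeHi. Morn2 rose (1.99 ± 0.12, CeCo 70.4 to 89.9, CeHi 287 to 353), as did Kif19a, a kinesin of motile cilia (1.73 ± 0.11, CeCo 98.1 to 117, CeHi 329 to 400.3). Among genes lower in CeHi, 4930412C18Rik fell (-3.41 ± 0.15, CeCo 282 to 365, CeHi 23.2 to 32.8) and Rapgefl1, a guanine nucleotide exchange factor (-0.93 ± 0.05, CeCo 3794 to 4111, CeHi 1907 to 2128). Of these, 4930412C18Rik passed the filter on low values through CeCo alone. The zinc finger gene Zfp605 fell (-1.13 ± 0.07, CeCo 1576 to 1657, CeHi 656 to 801).

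Genes called in neuropeptide signaling were both precursors and receptors. Of 52 listed precursor genes 20 were tested and 15 were at the floor in all 8 samples. Npy, Cck, Vgf and Penk were higher and Adcyap1 lower in CeHi, which makes 5 called of 20 tested (25% against 5.86% of all genes), and the median of the list was 0.15. Leaving out 1 sample gave 3 or 4 higher and 0 or 1 lower, and the lower one was kept only without CeHi replicate 3. Npy, which encodes neuropeptide Y, was at 138, 177, 192 and 159 in CeCo and at 383, 297, 378 and 569 in CeHi. Every CeHi sample lay above every CeCo sample, and the difference was 1.25 ± 0.18 (adjusted P-value = 0.0017), or 1.08 without CeHi replicate 3, the highest sample (adjusted P-value = 0.00102). Its direction is that of the labels. Cck, the precursor of cholecystokinin, was at 799.6, 801, 678 and 742 in CeCo and at 1147, 1172, 1282 and 1521 in CeHi (0.75 ± 0.09, adjusted P-value = 5.61e-04, or 0.67 without CeHi replicate 3). Penk, the precursor of enkephalins, was at 3808, 3132, 3212 and 3803 in CeCo and 4536, 4762, 4639.6 and 4523 in CeHi (0.41 ± 0.07, adjusted P-value = 0.00569). The calls of Cck and Penk were lost in the model of all 15 samples (adjusted P-values 0.0629 and 0.0627). Vgf, the precursor of several secreted peptides, was at 901, 579, 724 and 815 in CeCo and at 974, 1292, 1246 and 1469 in CeHi (0.72 ± 0.15, adjusted P-value = 0.0236), and its call was lost in 5 of 21 alternatives, among them without CeHi replicate 3 (adjusted P-value = 0.0592).

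Adcyap1, which encodes the peptide PACAP, was at 202, 182, 203 and 183 in CeCo and at 58, 53.8, 43.5 and 170.1 in CeHi. The high CeHi value was that of replicate 3, the sample that stood apart for Six3, and the part of this in the value was not tested. The difference was -1.46 ± 0.36 with all samples (adjusted P-value = 0.0489) and -1.89 without that replicate (adjusted P-value = 1.63e-05), and the call was lost in 12 of 21 alternatives (highest adjusted P-value 0.133).

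Of 59 listed neuropeptide receptors 24 were tested, and 3 were lower (12.5% against 2.94% of all genes) and 0 higher in CeHi. Npsr1, the receptor of neuropeptide S, was at 79.2, 123, 107 and 109 in CeCo and at 0, 0, 0 and 4.23 in CeHi. The single CeHi value above 0 was again that of replicate 3, which kept the gene just outside the floor. It differed by -6.11 ± 0.50 (adjusted P-value = 2.37e-05), or by -6.70 without that replicate (adjusted P-value = 2.12e-07). The gene passed the filter on low values through CeCo alone. Its call held in all 21 alternatives, and its direction is that of the labels. Ntsr2, a receptor of neurotensin, was at 3331, 3348, 3247 and 3192 in CeCo and at 1984, 1705, 1731 and 2332 in CeHi (-0.77 ± 0.09, adjusted P-value = 3.22e-04). Npr1, the receptor of atrial natriuretic peptide, fell (-0.55 ± 0.09, CeCo 817 to 938, CeHi 515 to 669.7). The other 21 tested receptors were not called, and of all 24 there were 12 above and 12 below 0, with a median of -0.01.

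**Figure D3:**
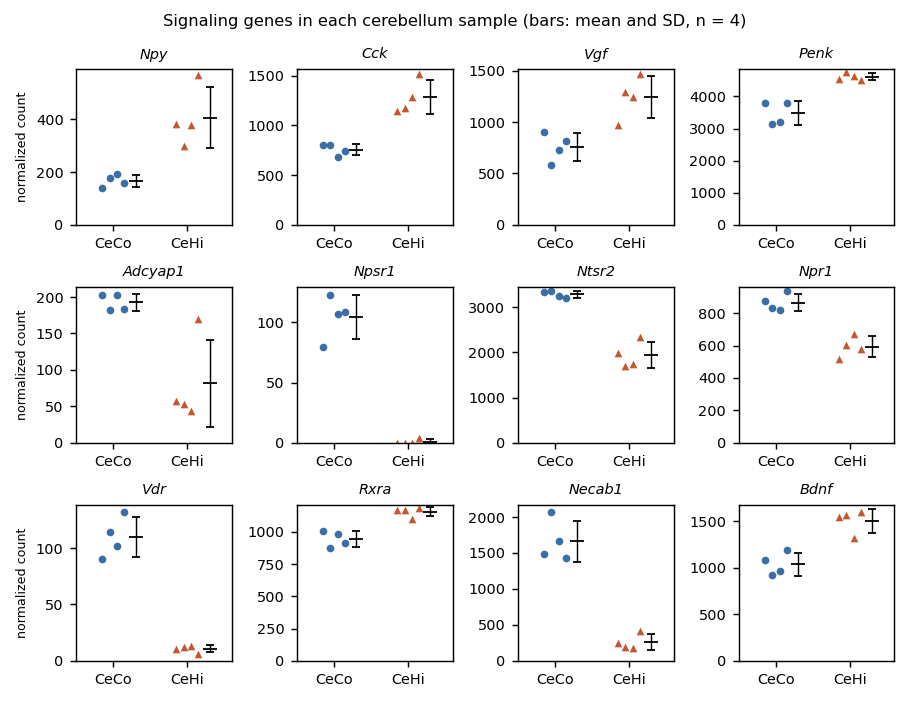
Normalized counts of 12 signaling genes in each CeCo sample (circles) and each CeHi sample (triangles), with the mean and SD of each line beside them (n = 4) and axes that start at 0. Npsr1 lies near 0 in CeHi (0 to 4.23), Vdr is low in CeHi (6.34 to 13), and for Adcyap1 CeHi replicate 3 lies at 170, near the CeCo samples.

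Vdr, the nuclear receptor of vitamin D, was at 90.4, 114, 102 and 132 in CeCo and at 10.1, 12.7, 13 and 6.34 in CeHi (-3.30 ± 0.24, adjusted P-value = 9.08e-06), again in the direction of the labels. Its binding partner Rxra was higher in CeHi, at 1104 to 1183 against 873 to 1007 (0.29 ± 0.06, adjusted P-value = 0.0197), a call lost in 2 of 21 alternatives (highest adjusted P-value 0.0623). Of 9 listed vitamin D and retinoid X genes 4 were tested, and Vdr and Rxra were the 2 called (50% against 5.86% of all genes). Vdr passed the filter on low values through CeCo alone. Necab1, a neuronal calcium binding protein, was at 1485, 2068, 1664 and 1436 in CeCo and at 247, 187, 183 and 415 in CeHi (-2.76 ± 0.26, adjusted P-value = 6.93e-04), with a log2 difference of -3.01 without CeHi replicate 3. Among 20 tested neurotrophic factors and receptors, Bdnf, brain-derived neurotrophic factor, was higher in CeHi (0.54 ± 0.09, CeCo 921 to 1189.8, CeHi 1316 to 1602), a call lost in the model of all 15 samples (adjusted P-value = 0.0526). Ntf3, neurotrophin 3, was lower (-0.47 ± 0.11, adjusted P-value = 0.0327), with overlapping ranges and a call lost in 8 of 21 alternatives. Bdnf and Ntf3 were the 2 called in this list (10% against 5.86% of all genes). Of 22 tested genes of cholesterol synthesis and uptake, 2 were higher (9.09% against 2.92% of all genes) and 0 lower in CeHi, among them Sc5d, an enzyme of its late steps (0.34 ± 0.06).

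Most heat shock and chaperone genes were on the side of CeHi. Of 25 tested, 23 had a difference above 0, against 7118 of all 14450 genes, and 5 were called higher (20% against 2.92% of all genes) and 0 lower, with a list median of 0.16. Without CeHi replicate 3 the count was 8 higher and 0 lower, without any other single sample 4 or 5 and 0, and in the model of all 15 samples 3 and 0. The called members were the small heat shock proteins Hspb6 (0.62 ± 0.09, CeCo 274 to 326, CeHi 427 to 505) and Hspb8 (0.41 ± 0.07), the cochaperone Dnajb1 (0.40 ± 0.06, CeCo 1943 to 2197, CeHi 2554 to 2872), Hsph1 (0.35 ± 0.09) and Hspa8 (0.28 ± 0.05). The call of Hsph1 was lost in 11 of 21 alternatives. Of 24 tested immediate early genes, which neurons switch on with activity, Nr4a2 (0.47 ± 0.07), Fosl2 (0.44 ± 0.08) and Dusp6 (0.29 ± 0.07) were higher and 0 were lower. The share called higher was 12.5%, against 2.92% of all genes. Nr4a2, a nuclear receptor, was at 691 to 822 in CeCo and at 966 to 1074 in CeHi, a call lost in the model of all 15 samples (adjusted P-value = 0.159), and the call of Dusp6 was lost in 8 of 21 alternatives. The other 21 tested members, Fos among them, were not called. Of 18 tested clock genes 1 was called, Bhlhe40, a transcriptional repressor, which was lower in CeHi (-0.24 ± 0.06, lost in 5 of 21 alternatives).

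Interferon-induced genes were mostly on the side of CeCo. Of 19 tested, 16 had a difference below 0, against 7332 of all 14450 genes, and 2 were called lower (10.5% against 2.94% of all genes) and 0 higher, with a median of -0.40. Ifit2, an antiviral RNA binding protein, was at 359, 649.9, 449 and 418 in CeCo and at 246, 167, 181 and 232 in CeHi (-1.17 ± 0.18, adjusted P-value = 0.00308). Ifih1, a cytosolic sensor of double-stranded RNA, was at 145 to 171 in CeCo and 66.4 to 88 in CeHi (-1.04 ± 0.13). Of 19 tested genes of antigen presentation only H2-Ab1, a class II chain, was called (-0.99 ± 0.21, CeCo 38.3 to 52.5, CeHi 16 to 25.3), and its call was lost in the model of all 15 samples (adjusted P-value = 0.141). H2-Ab1 passed the filter on low values through CeCo alone.

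Genes of energy metabolism and protein synthesis had few called members. Of 80 tested genes of the respiratory chain and ATP synthase 75 were above 0, with a median of 0.12, but 3 were called higher and 1 lower, 5% of the list against 5.86% of all genes. Besides Cox7b these were Ndufc1 (0.38 ± 0.10), Cox5b (0.28 ± 0.07) and Atp5sl (-0.38 ± 0.08, or -0.46 without CeHi replicate 3), and the calls of Ndufc1 and Cox5b were lost in 11 and 9 of 21 alternatives. Without CeHi replicate 3 the median of this list was 0.07, with 1 called higher and 1 lower. Cytosolic ribosomal protein genes had a median of 0.10, or 0.05 without CeHi replicate 3, with 2 of 81 called higher, Rpl35a and Rpl7l1, or 1 of 81 without that replicate. Of 75 mitochondrial ribosomal protein genes 3 were higher, Mrpl9 (0.49 ± 0.05, CeCo 1254 to 1298, CeHi 1761 to 1857), Mrps10 (0.76 ± 0.11) and Mrpl42 (0.28 ± 0.07, lost in 5 of 21 alternatives). Of 40 enzymes of glycolysis and the citrate cycle 1 was called, Hk2, a hexokinase (0.30 ± 0.08, lost in 10 of 21 alternatives). None of 45 proteasome subunits was called by limma, with 3 at an unadjusted P-value under 0.05, 0 called by edgeR and 1 by DESeq2.

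Markers of the neurons of the Ce were called in 1 of 15 granule cell genes (6.67%), 2 of 16 Purkinje cell genes (12.5%) and 1 of 5 unipolar brush cell genes (20%), against 5.86% of all genes. Of the 15 granule cell markers 13 were below 0 (median -0.15), and only Cbln1, a synaptic organizer released by granule cells, was called (-0.28 ± 0.07, CeCo 36594 to 46041, CeHi 33066 to 37403, adjusted P-value = 0.0474). These ranges overlap, and the call was lost in 10 of 21 alternatives. Of the Purkinje cell markers Rgs8 (0.27 ± 0.06, lost in 6 of 21 alternatives) and Lhx5 (0.31 ± 0.07, lost in 4) were higher in CeHi. Eomes, which marks unipolar brush cells, was at 2005, 1521, 1656 and 1946 in CeCo and at 2865, 2602, 2779.7 and 2911 in CeHi (0.65 ± 0.09, adjusted P-value = 9.45e-04), while the other 4 tested markers of that cell type had values below 0. The median of the 5 was -0.107. Without CeHi replicate 3 it was 0.002, with 2 of the 5 below 0, 1 called higher and 1 lower. The call of Eomes was lost in 1 of 21 alternatives, the model of all 15 samples (adjusted P-value = 0.577). The 6 tested deep nuclei markers were all above 0 with a median of 0.46, or 0.22 with 1 called without CeHi replicate 3. Of these 6, limma and edgeR called 0 and DESeq2 2, with 2 at an unadjusted P-value under 0.05. Slc17a6, the glutamate transporter of neurons of these nuclei, was at 2267 in that replicate and at 654 to 1190 in the other 7 samples.

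Among glial and vascular lists, Ugt8a and Ermn of 12 oligodendrocyte genes, Olig1 of 9 precursor genes, C1qb and Siglech of 14 microglia genes and Slco1a4 of 13 endothelial genes were higher in CeHi, by 0.27 (Slco1a4) to 0.81 (Siglech) on the log2 scale. Of 8 mural cell genes Acta2, smooth muscle actin, was lower (-0.52 ± 0.12). Each of these 7 calls was lost in some of the 21 alternatives, from 1 for Siglech to 10 for Slco1a4. The shares called were 16.7% (oligodendrocyte), 11.1% (precursor), 14.3% (microglia), 7.69% (endothelial) and 12.5% (mural), against 5.86% of all genes. None of 14 astrocyte, 12 interneuron or 14 choroid plexus genes was called by limma or edgeR. At an unadjusted P-value under 0.05 there were 3, 2 and 0 of these, and DESeq2 called 2, 2 and 0. All 10 meningeal fibroblast genes were below 0, with a median of -0.31, and 1 was called, the collagen Col3a1 (-0.85 ± 0.13, CeCo 408 to 639, CeHi 267 to 321). The summed level of these 10 genes was 33505 to 51946 in CeCo and 27438 to 40656 in CeHi, and the part of the amount of meninges on the tissue was not tested. Of 20 striatal and forebrain genes with a value, 7 were tested and all 7 were above 0, with Penk called and a median of 0.39, or 0.20 without CeHi replicate 3. The summed level of the 19 other than Penk was 6261 to 7071 in CeCo and 7169 to 8179 in CeHi, and its part in the higher values of Penk was not tested.

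**Figure D4:**
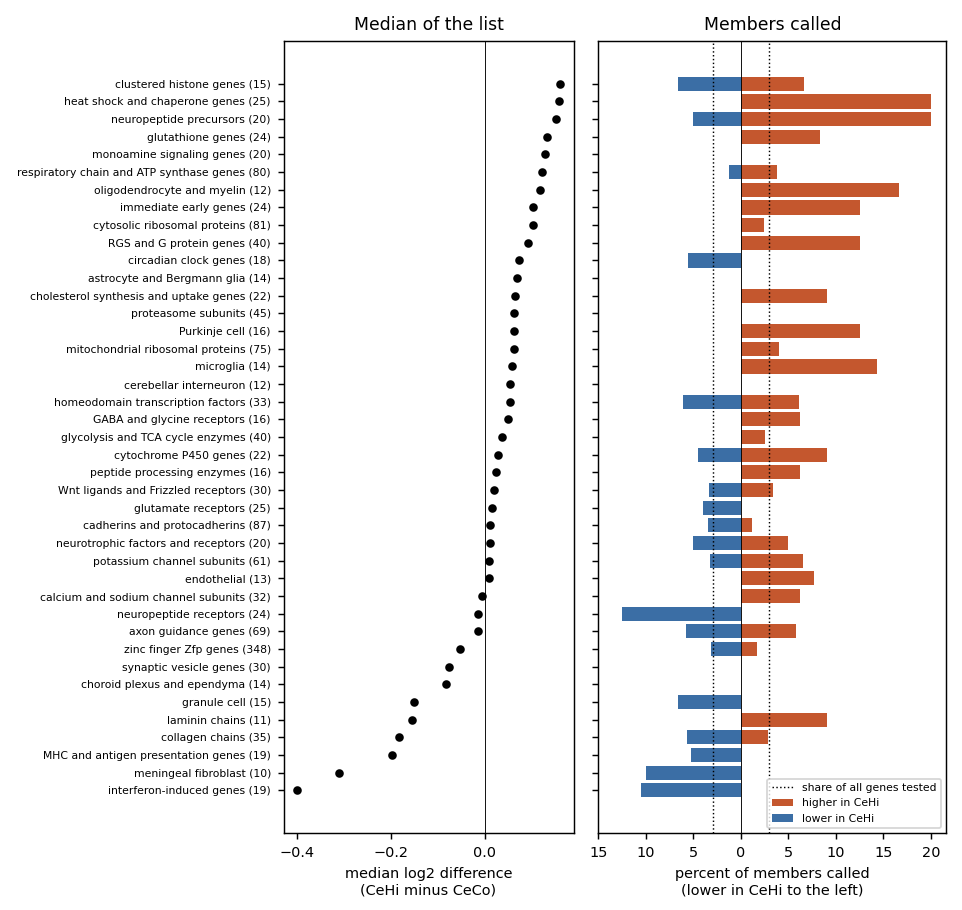
Gene lists with at least 10 tested members (number in brackets), ordered by the median log2 difference (CeHi minus CeCo, left panel), with the percent of members called higher (right of 0) or lower (left of 0) in CeHi (right panel). Dotted lines mark the shares of all genes tested, 2.92% higher and 2.94% lower, and interferon-induced genes have the lowest median (-0.40).

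Families of channels and signaling proteins held further called members. Of 61 potassium channel subunits 4 were higher, among them Kcnk1 (0.43 ± 0.08, CeCo 5864 to 7256, CeHi 8339 to 10238), and 2 were lower, among them Kcnip4, which binds A-type channels (-0.28 ± 0.05). The share called in this list was 9.84%, against 5.86% of all genes. Leaving out 1 sample gave 2 to 4 higher and 1 or 2 lower. Scn4b, an auxiliary sodium channel subunit, was at 2059.7, 2024, 2218 and 1819 in CeCo and 3305, 3634, 3168 and 2509.9 in CeHi (0.62 ± 0.10). Of 40 RGS and G protein genes 5 were higher (12.5% against 2.92% of all genes) and 0 lower, among them the gamma subunit Gng13 (0.43 ± 0.06, CeCo 3653 to 4309.7, CeHi 4992 to 5711). Leaving out any 1 of the 8 samples left 1 or 2 of this list higher. Of 25 glutamate receptor genes Grin1, the obligatory NMDA receptor subunit, was lower (-0.22 ± 0.05, CeCo 13223 to 14268, CeHi 11662 to 12314, lost in 4 of 21 alternatives). Of 16 GABA and glycine receptor genes Gabra3 was higher (0.47 ± 0.11, or 0.36 without CeHi replicate 3, lost in 7 of 21 alternatives). None of 30 synaptic vesicle genes or of 20 monoamine signaling genes was called by limma or edgeR. At an unadjusted P-value under 0.05 there were 6 and 4 of these, and DESeq2 called 1 and 0.

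Axon guidance genes were split, with 4 of 69 higher, among them the receptor Robo2 (0.39 ± 0.07), and 4 lower, among them Plxnd1 (-0.42 ± 0.08) and Ephb2 (-0.38 ± 0.08), in all 11.6% against 5.86% of all genes. Without CeCo replicate 0, CeCo replicate 3 or CeHi replicate 2 the counts were 2 higher and 2 lower, and without CeCo replicate 1 or CeHi replicate 1 there were also 2 lower. In the Wnt list of 30 tested genes, Rspo3, a secreted enhancer of Wnt signaling, was at 184, 187, 202 and 167 in CeCo and 384, 297, 338 and 347 in CeHi (0.88 ± 0.10), and the receptor Fzd7 was at 4407, 3674, 3394 and 3887 and 2727, 2976, 2669 and 2381 (-0.52 ± 0.08). Of 35 collagen chains 28 were below 0 (median -0.18), with Col13a1 higher (0.76 ± 0.16, lost in 4 of 21 alternatives) and Col3a1 and Col4a2 (-0.32 ± 0.07, lost in 2) lower. The share called among the collagens was 8.57%, against 5.86% of all genes. Col3a1 is also one of the 10 meningeal fibroblast genes, all below 0, and their part in the values of the collagens was not tested. Of 87 cadherins and protocadherins 1 was higher and 3 lower, among them Pcdhga6 (-0.60 ± 0.10), with 44.4% of its windows shared. Of 348 tested Zfp genes 6 were higher and 11 lower (4.89%, or 4 to 9 higher and 7 to 11 lower without 1 sample), among them Zfp423, a factor needed for growth of the Ce (-0.82 ± 0.10, CeCo 1577 to 2338, CeHi 1059.5 to 1203). The homeodomain list of 33 tested genes held En2, a patterning factor of the Ce, which was lower (-0.31 ± 0.06, CeCo 8522 to 9764, CeHi 7119 to 8257). Its call was lost in 1 of 21 alternatives, the model of all 15 samples (adjusted P-value = 0.538).

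The line difference of a gene was also set against that in the St, in a model of all 15 samples in which 81 of 15213 genes (0.532%) had a line difference that differed between regions (limma, adjusted P-value under 0.05) and 405 genes (2.66%) had a line difference in the St. Whether samples of the regions came from the same mice is not given by the labels, and the model treats all 15 as independent. Of the 121 called genes with a size over 1 in the Ce, 65 were also called in the St, 63 of them in the same direction, and 17 differed between regions. Npsr1 was near absent in CeHi alone: its St values were 101 to 170.1 in StCo and 68 to 98.6 in StHi, and the difference between regions was -5.56 ± 0.62 (adjusted P-value = 3.75e-04). For Vdr the St values were 29.4 to 46.9 and 26.1 to 36.3 (region difference -2.93 ± 0.34). Those of Necab1 were 7229.8 to 10165 and 6726 to 8108 (-2.45 ± 0.33). Npy had St values of 3072 to 4130.0 and 3014 to 3496 (1.35 ± 0.24). In these 4 genes the line difference of the St was not called.

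Krt25, a keratin of the hair follicle, was called in opposite directions in the regions. It was at 197, 225, 190.3 and 252 in CeCo and 53, 70.7, 32.4 and 63.4 in CeHi, against 2.74 to 11.1 in StCo and 45.4 to 56.3 in StHi (region difference -5 ± 0.45). A difference called in the Ce and not in the St was found for Fam124a (-1.35 ± 0.09 in the Ce, CeCo 659 to 713, CeHi 251 to 313), for Tifa, an adaptor of innate immune signaling (-1.56 ± 0.13), and for Creb3l1, a transcription factor of the secretory pathway (1.39 ± 0.12). Kif19a, 4930412C18Rik and A630081J09Rik were called in the same direction in both regions, with a smaller difference in the St. Ms4a3 was also called in both, at 0 in CeHi and 0 to 2.37 in StHi, so that both differences are lower bounds set by the levels in CeCo (217 to 287) and StCo (37.5 to 70.4) and cannot be ranked. Zfp605 was also called in both, with the larger difference in the St (region difference 0.56 ± 0.10). Cd300lf and Myo18b were under the filter in the Ce, where Cd300lf was at 25.2 to 35.7 in CeCo and 9.51 to 19 in CeHi and Myo18b at 12.5 to 17.7 and 30.6 to 50.02. Cd300lf overlaps Rab37 on the annotation, and reads of a stretch that lies in both cannot be told apart. Of the 50-base windows, compared on the same strand only, 2.29% of those of Cd300lf and 0% of those of Rab37 are shared with other transcripts. By contrast, 1500004A13Rik, Cox7b, Arhgap8, Cyp11a1 and Zfp33b were called in the same direction in the St, and a difference between regions was not called for any of these 5.

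**Figure D5:**
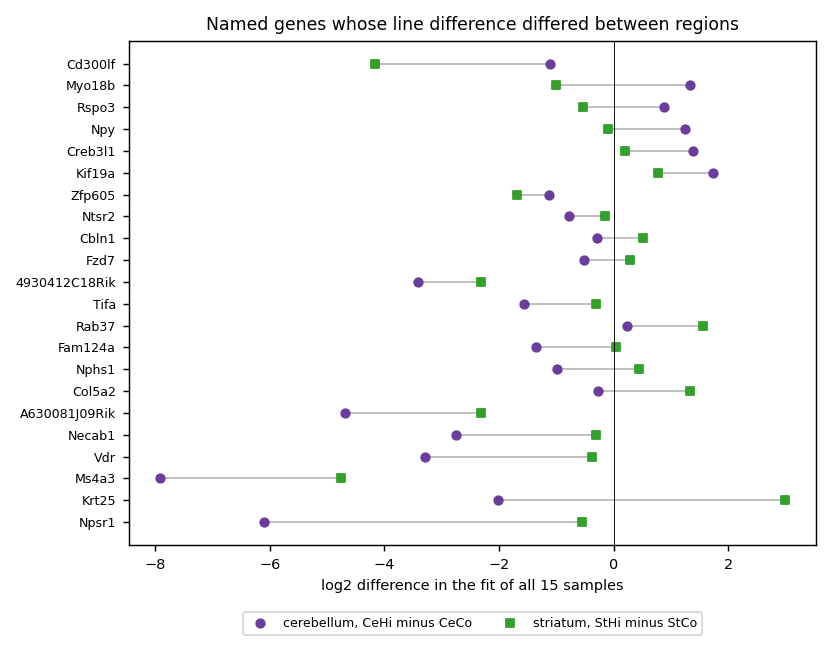
Log2 line difference (Hi minus Co) in the Ce (circles) and in the St (squares) for the 22 named genes whose line difference differed between regions in the model of all 15 samples, joined by a line for each gene. Npsr1, Vdr and Necab1 lie far below 0 in the Ce and near 0 in the St, and Krt25 lies on opposite sides of 0.

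Called genes were spread over the genome. Of the 14450 genes 13919 could be placed on GRCm38, 815 of them called. Among the autosomes and X, the share called was highest on chromosome 14 (45 of 481, 9.36%) and lowest on X (10 of 484, 2.07%, Cox7b among them). Chromosome 19 had the highest share of called genes with a size over 1 (12 of 485, 2.47%), 5 of them in the span from Ms4a2 to Gif. Long noncoding RNAs were called in 45 of 478 cases (9.41%), pseudogenes in 13 of 119 (10.9%) and protein-coding genes in 755 of 13308 (5.67%). Of 1248 windows of 1 Mb with at least 4 tested genes, 8 had at least 50% of them called. In chr5:104000001-105000000, the window with the most, 5 of 8 were called. Spp1, which encodes the matrix protein osteopontin, was at 503, 452, 596 and 420.4 in CeCo and 1278, 1159, 1082 and 898 in CeHi (1.16 ± 0.12). Pkd2, a channel of primary cilia (0.48 ± 0.06), Dmp1 (0.43 ± 0.09) and Zfp33b were also higher, and Nudt9 (-0.21 ± 0.05, lost in 10 of 21 alternatives) was lower.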

How the data were processed

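RNA of the dissected Ce and St was sequenced as paired-end reads by the authors. According to the methods of the study and the submitters' processing notes, reads were aligned to GRCm38 with TopHat2 and normalized with Cuffnorm 2.2.1. The deposited values are a signal per gene: fragment counts divided by a size factor for each sample and not by gene length. Within a tolerance of 0.1 of a fragment, 99.7% to 99.8% of low values in the 8 Ce samples were whole fragments, and the recovered fragments were used for the floor and for edgeR and DESeq2. Whether the libraries kept strand is not given in the sources used here.

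Genes with a CPM of at least 1 in 3 or more of the 8 Ce samples were kept, scaled by TMM (edgeR 4.0.16), transformed to log2(value + 1) and tested with limma 3.58.1 (trend and robust moderation, R 4.3.3) with Benjamini-Hochberg adjustment. Fold changes of low genes are understated on this scale. The difference between regions is the interaction term of a fit to all 15 samples, treated as independent although Ce and St samples may share mice. Printed levels are the deposited values, log2 differences carry their SE, and n is 4 for each line in the Ce. Beyond their being separate mice that were not sibs, how independent the samples of a line are was not examined. P-values measure the spread between these mice and not between lines.

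Named genes were the 12 largest in each direction, 8 each way by lowest adjusted P-value, up to 4 called members of each list, genes the study names for this contrast, genes at the floor in one line and called genes of the densest windows. Results of some genes are not reported here. Members, lists and tests were chosen with earlier results of these data known. Of 26628 symbols 24576 matched the RefSeq annotation, 2552 of them by an older symbol. The fits were tested on simulated data, and 21 alternatives were tried: other pseudocounts, filters, scalings and models, edgeR, DESeq2 1.42.0, a replicate block and leaving out each sample. Intervals of single values were not computed, and depth covers counting error only.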

Additional observations from a re-analysis of the deposited data

Results flagged for a closer look

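Of 251 groups of 4 samples examined over the named genes, 23 (9.16%) had a sample whose gap to its nearest neighbor was larger, as a share of the range of the group, than Dixon's critical value. Chance alone marks about 1 in 20 groups. The sample was CeCo replicate 1 in 8 cases: Gm10020 at 193 normalized counts, Hist1h2al at 48.1, Robo2 at 1264, Rab37 at 767, Ndst4 at 25, Nphs1 at 87.4, Tbc1d1 at 1122 and Pkd2 at 2419. CeHi replicate 3 was the sample in 7: Adcyap1 at 170, Atp5sl at 1754, Kcnmb2 at 87.7, Rgs10 at 917, Tfap2d at 87.7, Six3 at 179 and Ndst4 at 234. In CeCo replicate 2 it was Mrps10 at 699, Ephb2 at 1646 and Creb3l1 at 93.9, and in CeHi replicate 2 Grin1 at 12314, Stat6 at 326 and Klf3 at 438. The remaining cases were Slco1a4 at 1704 in CeCo replicate 3 and Nkx2-9 at 38.0 in CeHi replicate 1.

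For 22 named genes the line difference differed between the Ce and the St (limma interaction, adjusted P-value under 0.05). On the log2 scale, the difference of the Ce minus that of the St was negative for Npsr1 (-5.56), Krt25 (-5), Ms4a3 (-3.16), Vdr (-2.93), Necab1 (-2.45), A630081J09Rik (-2.37), Col5a2 (-1.61), Nphs1 (-1.43), Fam124a (-1.39), Rab37 (-1.34), Tifa (-1.26), 4930412C18Rik (-1.09), Fzd7 (-0.81), Cbln1 (-0.80) and Ntsr2 (-0.62). It was positive for Cd300lf (3.07), Myo18b (2.35), Rspo3 (1.40), Npy (1.35), Creb3l1 (1.2), Kif19a (0.95) and Zfp605 (0.56). The value of Ms4a3 rests on levels at the floor in Hi samples of both regions.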

How the results depend on the processing

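Over the 21 alternatives none of the 847 called genes that an alternative tested changed its sign. Of 132 called genes named here 69 kept their call in all 21 and 63 lost it in at least 1. Counts of called genes stayed within 1.5 times the reported 847 in all but DESeq2 and some fits without a sample. DESeq2 called 1378 genes, 659 higher and 719 lower, and 843 of the 847 were among them. The cause was not tested. Leaving out 1 sample gave 538 to 768 called genes, 248 to 371 higher and 262 to 397 lower, with fewer samples in each fit. The lowest counts were without CeCo replicate 0 (538), CeCo replicate 3 (541), CeHi replicate 2 (543) and CeCo replicate 1 (554), and the count of higher genes also fell without CeHi replicate 0 (276). The number of genes with a region difference was 182 with sample quality weights against 81, and 46 to 117 when 1 sample was left out, with under 54 without StHi replicate 1 (46), CeCo replicate 0 (49), StHi replicate 2 (50), StCo replicate 1 (52) or CeHi replicate 2 (53). A floor of at most 1 fragment left 6 genes in place of 10, and windows of 2 Mb left 4 in place of 8. A limit of over 60 fragments left 12 genes in CeCo and 10 in CeHi that were split within a line, in place of 25 and 27.

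A fit with the replicate number as a block called 845 genes, 408 higher and 437 lower, 686 of them among the 847, and 73 region differences. Same-numbered samples of the lines share only a number: the correlations of their residuals were -0.196, -0.326, 0.262 and 0.145 for replicates 0 to 3. At 36940371 to 47485707 fragments, counting error is small except for genes near the floor.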

Other observations

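Some genes had large differences that were not called because samples of a line were far apart. Padi4, which converts arginine to citrulline in proteins, was at 0.932, 238, 0 and 0 normalized counts in CeCo and at 364, 606, 559 and 1131 in CeHi (7.05 ± 1.90 on the log2 scale, limma adjusted P-value = 0.0975). The polyubiquitin gene Ubb was at 12352, 3122, 11768 and 5369 in CeCo and at 19276 to 22136 in CeHi (adjusted P-value = 0.137). Lrat, which esterifies retinol, was at 244, 260, 135 and 14.2 in CeCo and at 12.7 to 19.3 in CeHi (adjusted P-value = 0.127). In all, 11 tested genes had a size over 1.5 and were not called.

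Within CeCo 25 genes, and within CeHi 27, had at least 1 sample with at most 3 fragments and at least 1 with over 30. Of the 27 in CeHi, 10 were over 30 fragments in replicate 3 alone, among them Six3, Tfap2d, Vip, Shox2 and Pou4f2. In CeHi replicate 1 alone, AI506816 had 358 fragments and Gm8801 had 166, against at most 4 and 3 in the other 7 Ce samples. In CeCo, Gm14443 had 0 fragments in replicate 0 and 89, 44 and 50 in the others, against at most 1 in CeHi.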
